A study of Mus musculus with 4 samples.

Results

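The GIMAP genes encode GTPases of immunity-associated proteins, small membrane-bound GTPases of lymphocytes. All 8 members described here (Gimap1, Gimap3, Gimap4, Gimap5, Gimap6, Gimap7, Gimap8 and Gimap9) were taken by gene symbol from the 54752 genes of the count files. The libraries came from naïve splenic CD4+ T cells of C57BL/6 mice that were activated with anti-CD3 and anti-CD28 and skewed for 3 days towards follicular helper T (Tfh) cells with IL-6 and antibodies against TGF-β, IL-4, IFN-γ and IL-2, after which viable cells were sorted again for bulk RNA sequencing. The WT group held 2 libraries, from littermate control mice, and the Mek1/2-tKO group held 2 libraries, from Cd4-Cre+ mice with loxP-flanked alleles of both Map2k1 and Map2k2, which encode the kinases MEK1 and MEK2. Cd4-Cre is active from the CD4+CD8+ thymocyte stage, so deletion is not limited to CD4+ cells or to the culture. The ages of the culture donors are not given in the sources used here, nor is it stated whether the libraries of a genotype came from separate mice, so each p-value measures only the spread between these samples, which may be technical.

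GIMAP proteins anchor to membranes of the endoplasmic reticulum, Golgi, lysosomes or lipid droplets and regulate each other by forming dimers and hydrolysing GTP. The family is best known for keeping resting T and B cells alive: animals that lack Gimap5 or Gimap1 lose peripheral lymphocytes. GIMAP transcripts are present in T cells, B cells and NK cells, and in T cells they are known to be abundant at rest and to decline upon activation.

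The 8 genes lie side by side on chromosome 6 of the mouse genome (GRCm38), over 123.6 kb from position 48647234, the start of Gimap8, to 48770851, the end of Gimap3. Along the chromosome the order is Gimap8, Gimap9, Gimap4, Gimap6, Gimap7, Gimap1, Gimap5 and Gimap3. Gimap6 and Gimap3 are transcribed from the minus strand and the other members from the plus strand. Because the members arose as copies of each other, their coding sequences were compared to see how far reads could be told apart. Gimap3 and Gimap5 were the closest pair, with 809 of 895 aligned coding bases identical (90.4%). Of the other pairs, those without Gimap8, the longest member, were between 56.1% and 68.3% identical over the aligned bases. The stretch of 150 coding bases, the length of 1 sequencing read, in which Gimap3 and Gimap5 are most alike is shown because it is where their reads are hardest to separate. It covers coding bases 146 to 295 of Gimap3 and 158 to 307 of Gimap5, counted from the start codon in the GENCODE M21 transcripts, and the capital marks the 1 base that differs.
Gimap3: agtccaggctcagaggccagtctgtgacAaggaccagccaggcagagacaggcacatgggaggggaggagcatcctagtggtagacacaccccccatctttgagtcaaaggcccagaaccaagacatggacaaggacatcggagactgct
Gimap5: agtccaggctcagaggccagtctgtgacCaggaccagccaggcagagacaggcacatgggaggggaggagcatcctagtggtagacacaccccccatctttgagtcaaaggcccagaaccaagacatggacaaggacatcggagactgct
Even here, 1 base separated the genes, and no window of 150 bases in any member's transcripts recurred in a transcript of another member. Overlaps with other genes were found for 3 members. Gimap1 shared 36.0% of its exon bases with Gimap1os, an antisense gene on the minus strand, and 6.4% with Gm28053, a gene model on the plus strand that runs from just before Gimap7 into Gimap5. Gm28053 also covered 3.5% of the exon bases of Gimap7 and 3.7% of those of Gimap5. The library kit keeps strand, but the strand setting of the counting is not given in the sources used here, so the counts of Gimap1 are the least certain of the family.

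The 250 bases before the start site were examined next, and they are printed for the member with the largest change (Gimap1), the most abundant member (Gimap4), the member without a change (Gimap7), the member under the fold threshold (Gimap6) and the only member with a FOXO motif (Gimap3). They are RefSeq sequences of GRCm38.p6, written 5′ to 3′ on the strand of the gene. Capitals mark matches, on either strand, to the core motifs CACCC (KLF family), TGNGGT (RUNX), GTAAACA (FOXO), CCGGAA (ETS), CTTTGA (TCF/LEF), TGGGAA (Ikaros) and TGANTCA (AP-1).
Gimap1 (chr6:48738797-48739046, plus strand): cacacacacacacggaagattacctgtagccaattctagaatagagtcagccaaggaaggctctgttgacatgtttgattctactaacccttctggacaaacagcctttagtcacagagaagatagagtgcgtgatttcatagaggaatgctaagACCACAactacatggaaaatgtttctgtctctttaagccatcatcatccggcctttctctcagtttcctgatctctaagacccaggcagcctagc
Gimap4 (chr6:48684328-48684577, plus strand): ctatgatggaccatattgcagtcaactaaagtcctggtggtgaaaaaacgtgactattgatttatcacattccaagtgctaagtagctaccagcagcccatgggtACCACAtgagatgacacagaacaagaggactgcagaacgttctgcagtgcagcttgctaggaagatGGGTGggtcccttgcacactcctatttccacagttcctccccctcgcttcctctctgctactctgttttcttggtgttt
Gimap7 (chr6:48718371-48718620, plus strand): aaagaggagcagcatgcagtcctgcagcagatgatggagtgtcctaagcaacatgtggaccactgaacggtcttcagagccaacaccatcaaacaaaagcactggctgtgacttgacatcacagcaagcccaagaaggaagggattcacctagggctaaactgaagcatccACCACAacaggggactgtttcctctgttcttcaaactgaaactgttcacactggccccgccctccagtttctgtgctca
Gimap6 (chr6:48708245-48708494, minus strand): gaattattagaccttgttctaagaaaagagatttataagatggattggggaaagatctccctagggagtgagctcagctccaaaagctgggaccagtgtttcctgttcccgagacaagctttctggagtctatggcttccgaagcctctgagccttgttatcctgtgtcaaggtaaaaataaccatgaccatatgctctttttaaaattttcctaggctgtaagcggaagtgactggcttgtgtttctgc
Gimap3 (chr6:48770852-48771101, minus strand): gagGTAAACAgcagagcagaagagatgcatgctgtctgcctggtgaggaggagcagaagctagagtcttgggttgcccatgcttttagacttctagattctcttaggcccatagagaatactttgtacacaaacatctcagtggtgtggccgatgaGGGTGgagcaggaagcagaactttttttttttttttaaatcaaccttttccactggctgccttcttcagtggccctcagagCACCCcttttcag
In the printed sequences Gimap1 and Gimap7 each held 1 RUNX match. Gimap4 held 1 RUNX and 1 KLF match, and Gimap3 held 1 FOXO and 2 KLF matches. Gimap6 held none. In windows of 300 bases, which add the first 50 bases of the transcript, RUNX matches were present in 6 of 8 members against 45.8% of all 32851 promoters, and KLF matches in 5 of 8 against 57.5%. A FOXO match was present in 1 member (3.65% of all promoters), an Ikaros match in 1 (25.6%) and a TCF/LEF match in 2 (16%), whereas ETS (14.9%) and AP-1 (7.81%) matches were present in 0. In a second start site of Gimap8 a KLF and a RUNX match overlap. These matches are letters in a window and do not show binding of a factor.

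The data comprised 16330802 to 18931090 counts per library, of which mitochondrial genes took 1.62% and 1.56% in WT and 2.24% and 1.99% in Mek1/2-tKO. As a check of the labels, Map2k1 was lower in the Mek1/2-tKO libraries, with 1517 and 1973 counts against 3540 and 3612 in WT (log2 fold change -0.86, adjusted p = 1.29e-06, edgeR's quasi-likelihood test). Map2k2 was counted at 2660 and 3426 against 3011 and 3175, a log2 fold change of 0.15 that did not pass the test (adjusted p = 0.126). Counts are sums over whole genes and the exons between the loxP sites are not given in the sources used here, so the deletion itself could not be read from them, and Mek1/2-tKO denotes the libraries labelled so. The Mek1/2-tKO libraries also stood apart in lineage markers. Cd4, the co-receptor that defines the sorted population, had 5788 and 5581 counts in WT and 291 and 472 in Mek1/2-tKO, and Cd79a, a subunit of the B-cell receptor, had 1107 and 1137 against 9753 and 11534.

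All 8 GIMAP genes were expressed well above the filter on low counts in both genotypes. In CPM (a gene's count relative to the library total, scaled by edgeR's TMM factors), 6 of 8 members were higher in Mek1/2-tKO and 0 were lower, where a call needs a change of 1.5-fold or more together with an adjusted p (edgeR's quasi-likelihood test) below 0.05. With libraries scaled by their size alone, 3 members were called higher, since Gimap3, Gimap8 and Gimap9 then lay just under the fold threshold. Of the 14330 genes tested, 2388 were higher and 2848 lower in that setting. With the TMM factors, 19.3% of the 14330 genes were higher under the same rule and 16.4% were lower. At the adjusted p alone, 7 of 8 members were higher and 0 lower (0 also at an unadjusted p below 0.05, and by DESeq2), against 27.8% and 27.2% of all genes. Both Mek1/2-tKO libraries lay above both WT libraries for 7 of 8 members and below for 0, where 39.5% of all genes lay above and 38.8% below. The median log2 fold change of the members was 0.64, compared with 0.02 over all tested genes, whose quartiles were -0.47 and 0.55. The counting error of the lowest library was between 1.34% and 3.71% of its count for every member. In bulk libraries, a change in the number of cells that express a gene and a change in its RNA per cell cannot be told apart.

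**Figure D1:**
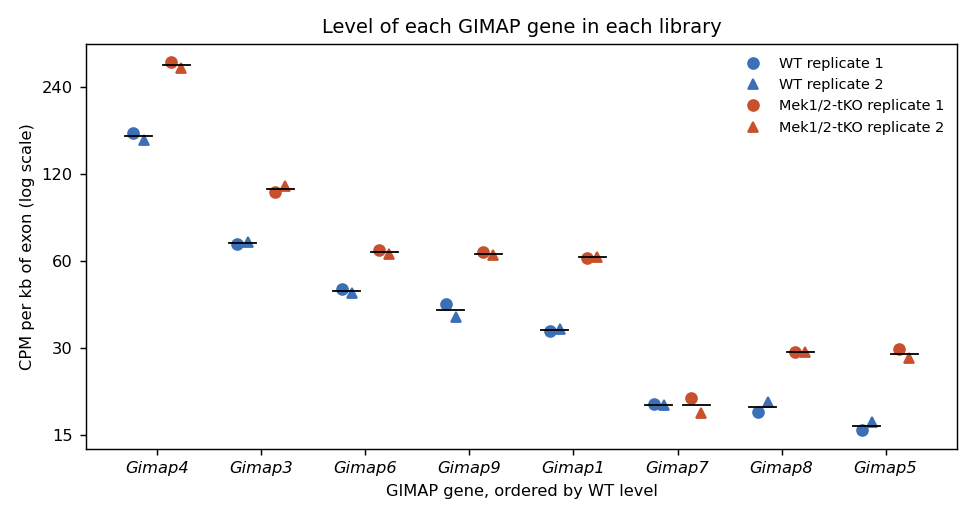
The plot shows CPM per kb of exon on a log axis for each GIMAP gene, with circles for replicate 1 and triangles for replicate 2 of WT (blue) and Mek1/2-tKO (orange), and black lines for group means. The orange points lie above the blue points for 7 genes and straddle them for Gimap7.

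Levels between genes were compared as CPM per kb of exon. In WT, Gimap4 stood first at 165.7 and 157.8 CPM per kb, followed by Gimap3 at 68.9 and 69.9. Gimap6 (48.0 and 46.7), Gimap9 (42.7 and 38.6) and Gimap1 (34.4 and 34.9) came next, and the libraries of these 5 genes did not overlap with those of their neighbours in the order. Gimap7 (19.2 and 19.1) and Gimap8 (18 and 19.5) overlapped, and Gimap5 was the lowest at 15.6 and 16.7. In Mek1/2-tKO, Gimap4 (291.5 and 278.2) and Gimap3 (103.8 and 109.2) kept the first places. Gimap6 (65.3 and 63.3) overlapped with Gimap9 (64.4 and 62.8), and Gimap1 (61.6 and 62.2) lay just below. Gimap8 (29.2 in both libraries) and Gimap5 (29.7 and 27.7) overlapped, and Gimap7, at 20.2 and 17.9, had become the lowest. Ranked among all tested genes by level, Gimap4 was at the 97.1st percentile in WT and Gimap5 at the 73.7th.

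Gimap5 and Gimap1 are the members whose loss in mice removes mature lymphocytes. Gimap5, a protein of lysosomal membranes, had 1264 and 1333 counts in WT and 1906 and 2158 in Mek1/2-tKO, or 64.9 and 69.1 against 123.1 and 115 CPM. The groups did not overlap, and the log2 fold change was 0.83 (SE 0.09, 95% interval 0.63 to 1.02, adjusted p = 4.9e-06, edgeR's quasi-likelihood test). Gimap1, required for mature T and B cells, had 2058 and 2065 counts in WT and 2930 and 3587 in Mek1/2-tKO, or 105.6 and 107.1 against 189.3 and 191 CPM. It showed the largest change of the family, a log2 fold change of 0.84 (SE 0.08, 95% interval 0.67 to 1.01, adjusted p = 1.12e-06, edgeR's quasi-likelihood test), whose interval overlaps widely with those of Gimap5 and Gimap4. Gimap1os, its antisense partner, moved in the opposite direction, with 118 and 148 counts in WT and 63 and 92 in Mek1/2-tKO, but did not pass the test (log2 fold change -0.61, adjusted p = 0.0598, edgeR). It had far fewer counts than Gimap1 in every library.

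Gimap3 and Gimap4 were reported, like Gimap5, to bind proteins of the BCL2 family, which decide on mitochondrial cell death. Gimap4, known to speed the death of T cells that have entered apoptosis, had 5931 and 5588 counts in WT and 8289 and 9595 in Mek1/2-tKO, or 304.4 and 289.8 against 535.4 and 511 CPM. Its log2 fold change was 0.82 (SE 0.07, 95% interval 0.66 to 0.98, adjusted p = 7.83e-07, edgeR's quasi-likelihood test). Gimap3, the close relative of Gimap5, had 3460 and 3473 counts in WT and 4140 and 5286 in Mek1/2-tKO, or 177.6 and 180.1 against 267.4 and 281.5 CPM. At a log2 fold change of 0.62 (SE 0.07, 95% interval 0.46 to 0.78, adjusted p = 1.09e-05, edgeR's quasi-likelihood test) it was the member closest above the fold threshold.

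Gimap8 and Gimap9 stand at one end of the cluster. Gimap8, the longest member, which carries several GTPase domains in one chain, had 1301 and 1391 counts in WT and 1673 and 2029 in Mek1/2-tKO. Its CPM values of 66.8 and 72.1 in WT and 108 in both Mek1/2-tKO libraries gave a log2 fold change of 0.64 (SE 0.09, adjusted p = 4.78e-05, edgeR's quasi-likelihood test). Gimap9 had 1365 and 1223 counts in WT and 1638 and 1935 in Mek1/2-tKO, or 70.1 and 63.4 against 105.8 and 103 CPM, a log2 fold change of 0.65 (SE 0.09, adjusted p = 5.54e-05, edgeR's quasi-likelihood test). Both exceeded the spread between replicates, but their intervals (0.44 to 0.83 and 0.44 to 0.85) reached below the fold threshold.

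Gimap6 and Gimap7 were the members that did not pass both thresholds. Gimap6, which binds the autophagy protein GABARAPL2, had 3271 and 3148 counts in WT and 3534 and 4154 in Mek1/2-tKO, or 167.9 and 163.3 against 228.3 and 221 CPM. It was higher with a log2 fold change of 0.44 (SE 0.07, 95% interval 0.28 to 0.60, adjusted p = 0.00022, edgeR's quasi-likelihood test), a 1.36-fold difference. Gimap7, described as an activator of GTP hydrolysis by other GIMAP proteins, had 869 and 856 counts in WT and 728 and 781 in Mek1/2-tKO, or 44.6 and 44.4 against 47.0 and 41.6 CPM. The groups overlapped, and the log2 fold change of -0.01 (SE 0.11, adjusted p = 0.958, edgeR's quasi-likelihood test) had a 95% interval of -0.24 to 0.23. A change of 1.5-fold in either direction lies outside that interval, as do the estimates of the other 7 members.

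Summed over the members, the family took 1001.7 and 989.5 CPM in WT and 1604.3 and 1572.3 CPM in Mek1/2-tKO, 1.60 times as much. With 2 libraries a group, an exact two-sided permutation test of a single value cannot go below p = 0.333, so no p is given for the sum. Gimap4 took 40.2% and 39.1% of the family's CPM per kb in WT and 43.8% and 42.8% in Mek1/2-tKO. Gimap7 took 4.65% and 4.74% in WT and 3.04% and 2.75% in Mek1/2-tKO, and Gimap6 11.6% in both WT libraries and 9.81% and 9.73% in Mek1/2-tKO. Ratios between members within a library do not depend on the scaling of libraries. The ratio of Gimap4 to Gimap7, on the per-kb scale, was 8.64 and 8.26 in WT and 14.4 and 15.5 in Mek1/2-tKO. By contrast, the ratio of Gimap4 to Gimap5 was 10.6 and 9.47 against 9.82 and 10. That of Gimap1 to Gimap4 was 0.207 and 0.221 against 0.211 and 0.223, so these 3 genes held their proportions within the replicate spread. Of all 28 pairs of members, however, the ratio separated the genotypes for 22 and overlapped for 6. The shifts were not limited to Gimap6 and Gimap7, as Gimap3 to Gimap4 was 0.416 and 0.443 against 0.356 and 0.393.

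**Figure D2:**
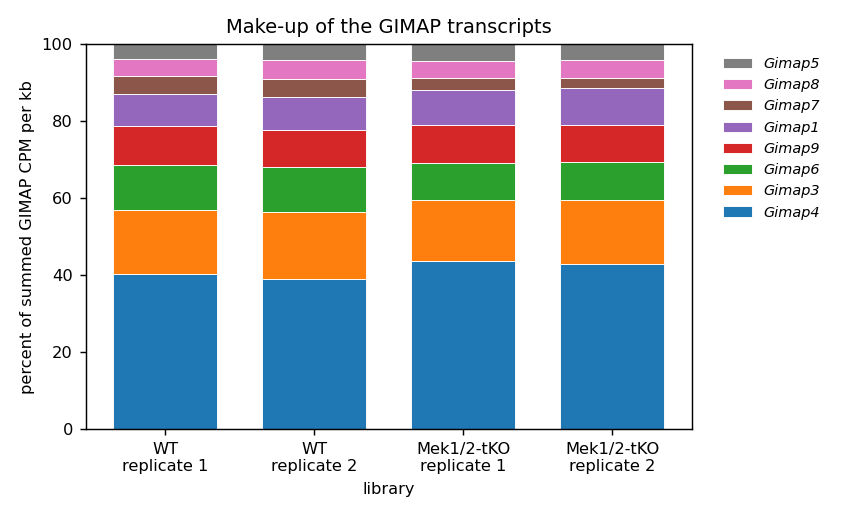
Stacked bars show the percentage of the summed GIMAP CPM per kb that each gene took in each of the 4 libraries. Gimap4 (blue) rises from 39.7% on average in WT to 43.3% in Mek1/2-tKO, and Gimap7 (brown) narrows from 4.69% to 2.89%.

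The genes around the family were examined to set its change beside that of the surrounding region. Within 250 kb on each side and inside the cluster lie 40 other genes, of which 16 were tested and 18 had a count of 0 in every library. Of the 16, 4 were higher and 4 lower, beside 19.3% and 16.4% of all tested genes. Their median log2 fold change was -0.08. The other 3 tested non-members inside the cluster had few counts. Gm28053 had 20 and 11 in WT and 17 and 30 in Mek1/2-tKO (log2 fold change 0.76, adjusted p = 0.289, edgeR), and the noncoding genes Gm44226 (-0.67, adjusted p = 0.296) and 4833403J16Rik (0.56, adjusted p = 0.475) did not pass the test either. On the side of Gimap3, the nearest tested genes were Tmem176b, with 178 and 183 counts against 311 and 387 (log2 fold change 1.13, adjusted p = 5.08e-05, edgeR), and Tmem176a, with 104 and 80 against 228 and 221 (1.48, adjusted p = 8.9e-05). They encode paired membrane proteins of immature dendritic cells and other immune cells. On the side of Gimap8, the nearest tested genes were AI854703 (-0.77, adjusted p = 0.109) and Zfp775 (-0.47, adjusted p = 0.181), which did not pass the test, and Repin1 (0.42, adjusted p = 0.0362, edgeR), which was under the fold threshold. Lrrc61 came next and was higher (log2 fold change 0.80), and Gm7887 (0.30) was under the fold threshold. Farther away, and named after their values were seen, Gm10243 (0.77) was higher, whereas Krba1 (-1.28), Zfp467 (-1.20) and Zfp862-ps (-2.04) were lower. Sspo had 18 and 23 counts in WT and 0 in both Mek1/2-tKO libraries, at least 5.99-fold lower against a floor of 3 counts per library, which covers counting error only.

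**Figure D3:**
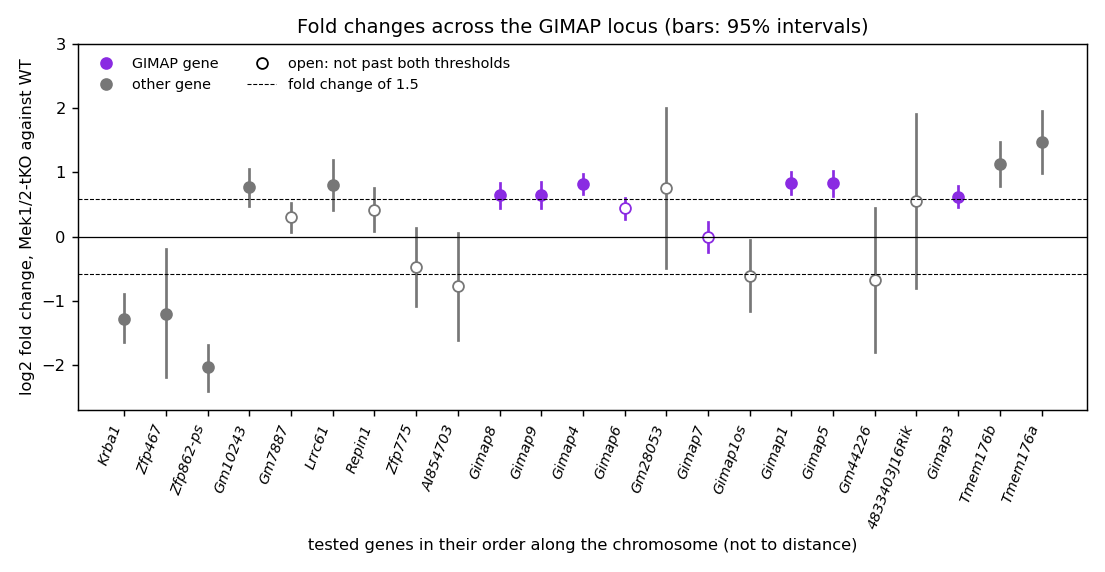
Points show the log2 fold change (Mek1/2-tKO against WT) of each tested gene in chromosome order, with bars for 95% intervals, GIMAP genes in purple, other genes in grey and open points for genes not past both thresholds; Sspo, at 0 in Mek1/2-tKO, is left out. The 8 GIMAP genes lie between -0.01 and 0.84, while the other genes spread from -2.04 to 1.48.

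GIMAP genes are characteristic of resting lymphocytes, so naïve and quiescence genes were read beside them. Of the 26 listed genes, all tested, 8 were higher and 7 lower, beside 19.3% and 16.4% of all tested genes. Their median log2 fold change was -0.18, with no common direction. Klf2, a transcription factor of resting T cells, had 84 and 132 counts in WT and 1473 and 1969 in Mek1/2-tKO (log2 fold change 4.16, adjusted p = 2.22e-10, edgeR), and S1pr1, the receptor for lymphoid exit, was higher by 3.92. In the other direction, Igfbp4 (-3.81) and Satb1 (-2.00), both high in naïve CD4+ T cells, were lower. Of the 20 T-cell activation genes, 14 were lower and 1 higher, with a median of -1.04. Among the lower genes were the helper ligand Cd40lg (-3.95), the inhibitory receptor Ctla4 (-2.97), the receptor-induced factor Nr4a1 (-1.74) and the costimulatory receptor Tnfrsf4 (-1.58). T-cell identity genes were lower in the same libraries as well, 11 of 18 lower and 1 higher, with a median of -0.92. The part of a changed cell make-up in the values of the naïve and activation lists was not tested.

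The reported partners of GIMAP proteins were followed next, beside the 19.3% of all tested genes that were higher and the 16.4% that were lower. Among 15 tested genes of the BCL2 family, 5 were higher and 2 lower, with a median log2 fold change of 0.44, and the number higher was 3 without Mek1/2-tKO replicate 1 and 8 without Mek1/2-tKO replicate 2. Bcl2, which preserves resting lymphocytes, had 1149 and 1129 counts in WT and 542 and 732 in Mek1/2-tKO (-0.67, adjusted p = 0.000142, edgeR). Bcl2l1, which encodes BCL-XL, was at -0.22 (adjusted p = 0.0175, edgeR), under the fold threshold. The 5 higher genes were the death-promoting members Bmf (2.41), Bax (0.93) and Pmaip1 (0.88) and the survival genes Bcl2a1d (0.62) and Mcl1 (0.61), of which the last 2 were named after their values were seen. The survival gene Bcl2l2 (-0.99) was the other lower gene. Bcl2a1d belongs to a group of near-identical copies, so its reads are uncertain. Of 21 autophagy genes, 5 were higher and 0 lower (2 lower without Mek1/2-tKO replicate 2), with a median of 0.14. Gabarapl2, the partner of Gimap6, had 308 and 283 counts in WT and 321 and 354 in Mek1/2-tKO, a log2 fold change of 0.38 (adjusted p = 0.0489, edgeR) under the fold threshold. Its relatives Gabarap (1.24) and Map1lc3b (0.93), the regulator Tfeb (1.07) and the conjugation enzyme Atg10 (0.90) were higher. The 5 of 21 autophagy genes called higher stood near the 19.3% over all tested genes.

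Markers of other lymphocytes, which also express GIMAP genes, of myeloid cells and of T cells were read next. The counts of each list stand beside 19.3% of all tested genes higher and 16.4% lower. Of 20 B-lineage markers, 18 were higher and 1 lower (Fcer2a, -0.59, named after its value was seen). Their summed level was 1984 to 2016 CPM in WT and 9638 to 9716 CPM in Mek1/2-tKO. Fcrla (6.17), Cd79b (3.73), Ighd (3.68) and Cd79a (3.43) led the list by log2 fold change. The list of CD8 and gamma-delta T-cell markers was higher for 7 of 7 tested genes of 8 listed. Its sum was 63.6 to 74.4 CPM in WT and 380.2 to 422.6 CPM in Mek1/2-tKO. Cd8a was at a log2 fold change of 2.06 and Trdc, the constant region of the delta chain, at 5.12. Sox13, with 2 and 4 counts in WT, passed the filter on low counts only through Mek1/2-tKO, so its direction was fixed. With at least 10 counts in every library, 5 markers of this list were higher. The gamma-chain constant regions Tcrg-C4 (5.78), Tcrg-C2 (4.65) and Tcrg-C1 (4.09) were also higher, and reads of such similar genes may be split between them. NK-cell markers were higher for 11 of 13 and lower for 1 (Itga2, -1.63, named after its value was seen). Their sum was 134.9 to 139.4 CPM in WT and 830.1 to 914.2 CPM in Mek1/2-tKO. The receptors Klra8 (4.74), Ncr1 (3.73) and Klre1 (3.71) and the adaptor Tyrobp (3.54) led. Myeloid markers were higher for 8 of 8 tested genes of 12 listed, from 6.16 and 6.17 CPM to 32.1 and 37.8 CPM. Lyz2 was at 3.97 and S100a9 at 3.55. Some of these genes, among them Adgre1, S100a8 and S100a9, passed the filter on low counts only through Mek1/2-tKO, so their direction was fixed. With at least 10 counts in every library, 4 myeloid markers were higher. Adgre1 and S100a8, at 0 in both WT libraries, were at least 28-fold and 5.94-fold higher against a floor of 3 counts per library. Of 18 T-cell identity genes, 11 were lower and 1, Thy1 (0.83), was higher, from 4921 to 4974 CPM to 3537 to 3725 CPM. Cd4 (-3.73), Cd28 (-1.99), Cd5 (-1.55) and Bcl11b (-1.49) led. The T-cell receptor complex was divided. Cd3e (-1.06), Trac (-0.98) and Cd247 (-0.79) were lower, whereas Cd3d (0.20), Cd3g (0.24), Trbc1 (0.16) and Trbc2 (-0.03) were not called. Of these, Thy1 and the chains other than Cd3e were named after their values were seen. No listed marker was at 0 in all 4 libraries. In WT, Adgre1, C1qa and S100a8 of the myeloid list and Trdv4 of the gamma-delta list were at 0. The 1 lower NK-cell marker was lost when any 1 library was left out, and the 1 lower B-lineage marker without WT replicate 1 or Mek1/2-tKO replicate 1. The part of these markers' cells in the GIMAP values was not tested. The median log2 fold changes were 2.22 for B-lineage, 2.72 for NK-cell and 4.09 for CD8 and gamma-delta T-cell markers.

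**Figure D4:**
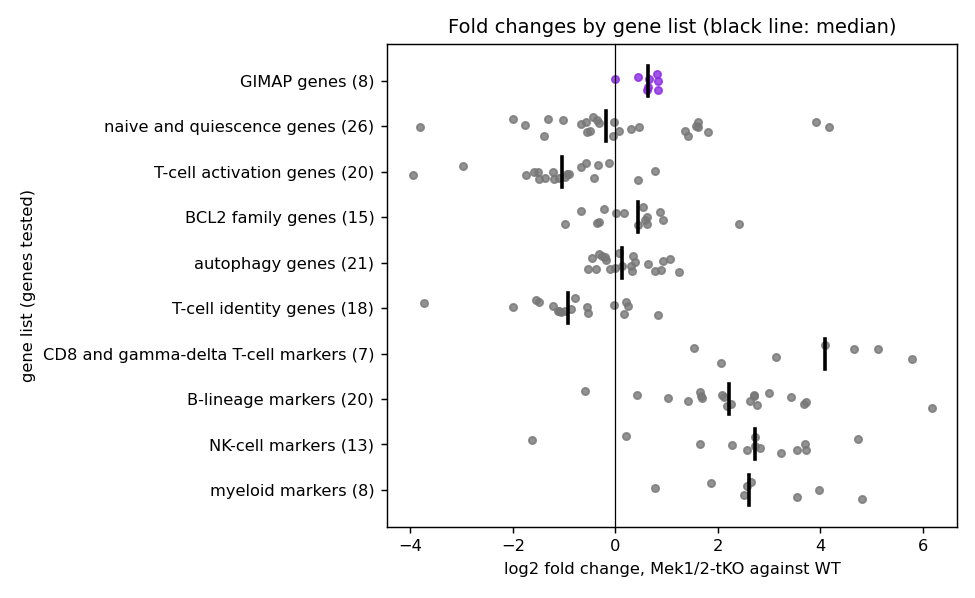
Each point is the log2 fold change (Mek1/2-tKO against WT) of a tested gene, by list, with black lines at list medians; genes at 0 in WT are drawn at their lower bound against a floor of 3 counts. The GIMAP genes (purple) have a median of 0.64 and lie between -0.01 (Gimap7) and 0.84 (Gimap1), while the naïve and quiescence genes spread from -3.81 to 4.16.

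To find genes with a profile like the family's, the centred log2 CPM of each gene over the 4 libraries was compared with the median profile of the members, by Euclidean distance. The 5 closest of 9598 genes whose mean log2 CPM reached 3 were Tgtp1, Uckl1, Cox7a2l, St6gal1 and Sh2b3, at distances of 0.0217 to 0.0306 and log2 fold changes of 0.68 to 0.70. The members themselves lay at 0.074 (Gimap3) to 0.689 (Gimap7), and 346 other genes were closer than the median member. With 4 libraries and a single contrast, such a profile holds little more than the fold change.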

How the data were processed

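Polyadenylated RNA was sequenced in 2 WT and 2 Mek1/2-tKO libraries (stranded kit, paired reads of 150 bases). Per the paper's methods, the authors trimmed reads with Trimmomatic 0.36, mapped them to GRCm38 and counted the uniquely mapped ones per gene in featureCounts (Subread 1.5.1); they deposited raw counts per gene, with no normalization. The annotation release is not given in the sources used here. Of 54752 gene identifiers, 53861 were found with the same version in GENCODE M21, and 54723 had a symbol.

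Counts were fitted in edgeR 4.0.16 (R 4.3.3; filterByExpr, TMM, robust quasi-likelihood, Benjamini-Hochberg adjustment over 14330 genes), comparing both genotypes without covariates, and the fit was tested on simulated data. A call needed a change of 1.5-fold or more with an adjusted p below 0.05. Replicates differed beyond sampling noise (chi-square per gene 4.17 in WT, 10.9 in Mek1/2-tKO). Results were recomputed with a likelihood-ratio test, DESeq2 1.42.0, other scalings, filters and thresholds, a replicate block, and leaving out each library. Per kb values used the exon length in the deposited files, and likeness used log2 CPM with a pseudocount of 0.5. Coding sequences were aligned with Biopython 1.88. The members and gene lists were chosen with earlier results of these data known. Named genes were the members, the targeted genes, defining lineage markers, reported partners, Klf2, the 5 nearest tested genes on each side within 250 kb and those inside the cluster, up to 4 genes of largest change per list, and the 5 genes of nearest profile; 2 further genes of this rule are not reported here.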

Additional observations from a re-analysis of the deposited data

How the results depend on the processing

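The 6 GIMAP genes called higher stayed at 6 under DESeq2, the likelihood-ratio test, DESeq2's size factors, a minimum of 10 counts in every library, no filter, and the stricter p. For the first 3 of these settings, the genes higher over all genes were 2444 of 22643, 2926 of 14330 and 2780 of 14330. For the last 3 they were 2363 of 12733, 2776 of 22643 and 2324 of 14330. With library size alone as the scaling, 3 members were called (Gimap1, Gimap4 and Gimap5) and the family's median log2 fold change was 0.56. Gimap3 (0.53), Gimap8 (0.55) and Gimap9 (0.56) then fell under the fold threshold, with adjusted p-values still under 0.05 (edgeR). The median of all genes was then -0.07, with 2388 of 14330 genes higher and 2848 lower. At a fold change of at least 2, 0 members were called by edgeR, since the largest log2 fold change was 0.84. When 1 library was left out, some members fell just under the fold threshold. Gimap8 was at 0.58 without WT replicate 1, Gimap9 at 0.57 without WT replicate 2 and Gimap3 at 0.57 without Mek1/2-tKO replicate 2. The sign of Gimap7, whose groups overlap, turned to 0.01 with at least 10 counts in every library and lay between -0.1 and 0.07 when a library was left out.

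Replicate numbers marked no stated pairing, and same-numbered libraries did not deviate together (correlation -0.0242 across genes). With a replicate block, 6 members were higher, beside 2652 of 14330 genes, and the family's median was 0.64. The 1 lower B-lineage and the 1 lower NK-cell marker were lost (0 and 0).

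Among the lists, library size alone left 3 BCL2 family genes higher and 1 autophagy gene lower. The lower NK-cell marker was also lost (0) under DESeq2, the p threshold of 0.01 and at least 10 counts in every library, and the lower B-lineage marker (0) under DESeq2's size factors, at least 10 counts and a fold change of at least 2. At least 10 counts in every library left 4 myeloid markers higher. Without a fold threshold, 3903 genes were lower, as were 13 naïve and quiescence, 4 BCL2 family and 3 autophagy genes, and 2 activation, 8 BCL2 family, 9 autophagy and 2 T-cell identity genes were higher. At a fold change of at least 2, 1725 genes were higher and 1040 lower, with 2 locus neighbours, 0 activation, 1 BCL2 family, 2 autophagy and 0 T-cell identity genes higher and 0 BCL2 family genes lower. Leaving out 1 library gave 3 to 8 BCL2 family genes higher, 0 to 2 autophagy genes lower, 0 to 1 B-lineage markers lower and 0 to 0 NK-cell markers lower. The cause of these shifts was not tested. With 2 libraries a genotype, only differences well beyond their spread can be called.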
